A study of Mus musculus with 8 samples.

Results

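CP6 is 1 of 15 annotated nuclear types of the mouse petrous temporal bone (PTB), the dense bone that encloses the inner ear and lies against the paraflocculus and flocculus (PF/F) of the cerebellum. Its members were the nuclei that the deposited annotation calls CP6, joined by sample and barcode to the deposited matrices of unique molecular identifier (UMI) counts. There were 1434 such nuclei among 31076 annotated PTB nuclei. The series holds 79313 annotated nuclei in all, of which 48237 are from the PF/F. The study also describes other PTB cells, among them immune cells and neurons, which are not among the 15 types. Ranks and values of all other nuclei below therefore leave them out. The 4 PTB libraries came from mice at postnatal day 5.5, each library a pool of 5 animals, with 2 libraries of wild-type (WT) littermates and 2 of Tbx1+/- mice, which carry 1 mutant allele of Tbx1 in every cell and are kept on a C57BL/6J background. The study describes 2 batches of animals of each genotype. By the replicate number in the sample titles, replicate 1 of both genotypes was taken as 1 batch and replicate 2 as the other. Both sexes were used, and the pools cannot be split into single animals. Which part of the gene the mutant allele lacks is not given in the sources used here, so UMIs from the 3′ end of the transcript may not count the loss of 1 allele.

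Tbx1 encodes a T-box transcription factor that lies within the mouse region matching the human 22q11.2 deletion, and it is needed for the pharyngeal apparatus, the heart outflow tract, the ear and the skull base. In the ear it acts both in the otic epithelium and in the surrounding periotic mesenchyme, from which the otic capsule cartilage, its bone and the fibrocytes of the cochlea arise. Sox9 is the transcription factor that commits mesenchyme to cartilage. It drives the genes of cartilage matrix, such as Col2a1 and Acan, together with Sox5 and Sox6.

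The 4 libraries gave 490, 306, 307 and 331 CP6 nuclei, here and below in the order PTB WT replicate 1, PTB Tbx1+/- replicate 1, PTB WT replicate 2 and PTB Tbx1+/- replicate 2. Their summed depth was 1369901 to 2028327 UMIs per library, with a median of 3552 to 4139 UMIs per nucleus. Mitochondrial UMIs were 1.55%, 1.05%, 0.709% and 0.787% of CP6 UMIs, so batch 1 was higher than batch 2. Between 2 and 5 CP6 barcodes per library also occurred in another PTB library. Levels below are counts of a gene per 1e6 UMIs (CPM) of the summed CP6 nuclei of a library, and intervals on shares of nuclei are exact binomial 95% intervals that cover counting error only. Because CP6 was drawn by clustering on gene expression, levels in CP6 against other types are descriptions and carry no test.

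CP6 was the type with the highest mean level of Tbx1 (ENSMUSG00000009097, chr16:18580979-18590671, minus strand, mm10) among the 15 annotated types. The level was 77.9, 54.7, 96.6 and 98.0 CPM, from 158, 75, 139 and 164 UMIs, with a mean of 81.8 ± 20.2 (SD, n = 4). PTB Tbx1+/- replicate 1 was the lowest of the 4 libraries and PTB Tbx1+/- replicate 2 the highest. All other annotated PTB nuclei summed gave 37.0, 25.3, 36.9 and 32.5 CPM, below CP6 in every library. CP5 followed with 73.6, 49.1, 98.4 and 84.2 CPM and a mean of 76.3 ± 20.8 (SD, n = 4), so its range overlapped that of CP6 and the order of these 2 types rests on a gap smaller than their spread. CP4 with a mean of 54.0, CP1 with 51.1 and CP2 with 44.5 CPM came next, each with a range that overlapped that of its neighbour. CP3, a type that shares the CP name, had only 4.48 to 13.8 CPM, below every CP6 library.

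**Figure D1:**
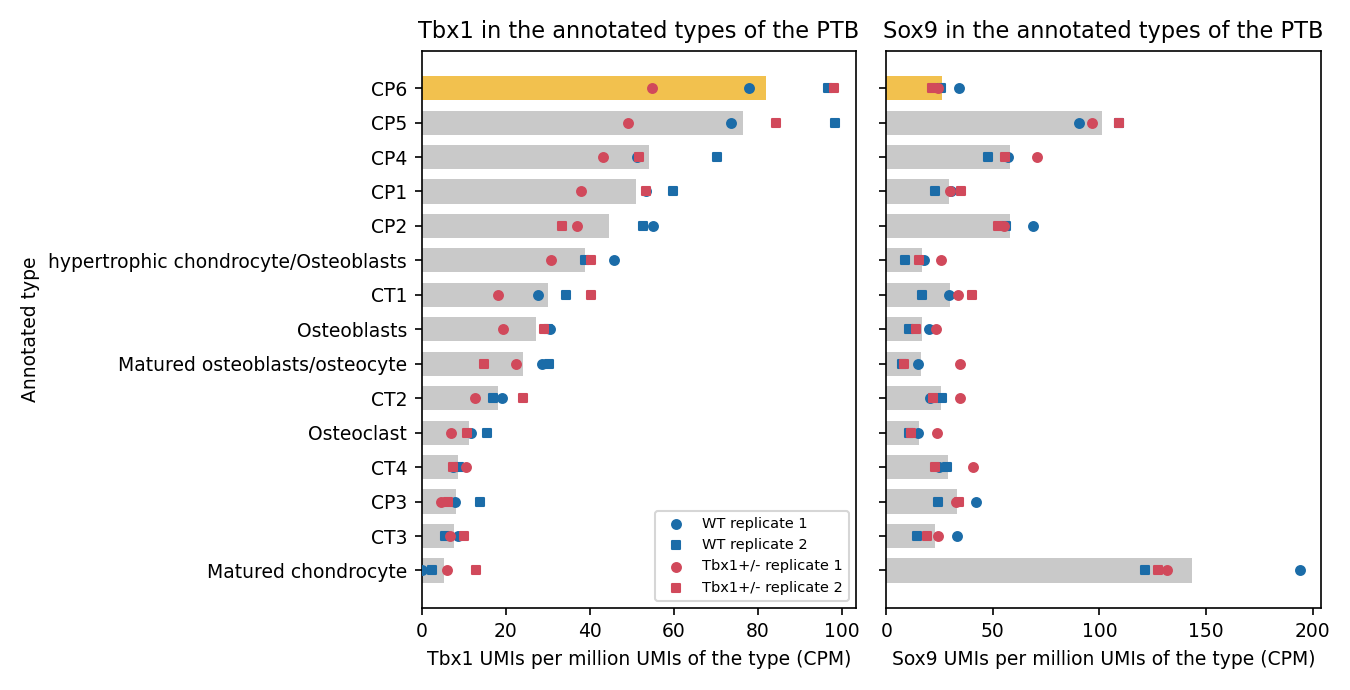
Level of Tbx1 and of Sox9, in CPM of summed nuclei, in each of the 15 annotated types, with 1 point per library and a bar for the mean of the 4 libraries. For Tbx1, CP6 (mean 81.8) and CP5 (mean 76.3) overlap at the top. For Sox9, CP6 has a mean of 26.3, and Matured chondrocyte has the highest mean at 144.

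A Tbx1 UMI was seen in 26.3% of CP6 nuclei (22.5 to 30.5%), 18.6% (14.4 to 23.4%), 32.6% (27.4 to 38.1%) and 33.8% (28.8 to 39.2%). In osteoclasts, which arise from the blood lineage, the share was 3.52 to 8.44%, with a median depth of 4963 to 7105 UMIs against 3552 to 4139 in CP6. The CP6 share was therefore above that of osteoclasts in each library although the osteoclasts were deeper. Whether the Tbx1 UMIs of osteoclasts came from RNA outside the nuclei was not tested. With every nucleus thinned to 2000 UMIs, which left out 37 CP6 nuclei, the share of nuclei with Tbx1 was 11.1 to 18.3% in CP6, 9.63 to 20.5% in CP5 and 1.35 to 2.56% in osteoclasts.

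Sox9 (ENSMUSG00000000567, chr11:112782224-112787760, plus strand, mm10) was low in CP6. Its level was 34.0, 24.1, 25.7 and 21.5 CPM, with a mean of 26.3 ± 5.41 (SD, n = 4), the 9th of the 15 types. Osteoclasts had 15.0, 23.9, 10.5 and 11.4 CPM, below CP6 in each library, in PTB Tbx1+/- replicate 1 by a narrow margin. CP1 to CP5 summed had 48.3 to 56.6 CPM, above every CP6 library, and CP5 alone had a mean of 101. CP1 (23.0 to 35.0 CPM) and CP3 (24.2 to 41.9 CPM) overlapped CP6. A Sox9 UMI was seen in 12.0%, 10.5%, 10.7% and 9.06% of CP6 nuclei, which overlaps the 7.003 to 11.21% of the deeper osteoclasts and lies below the 30.8 to 40.5% of CP5. Thinned to 2000 UMIs the shares were 6.75%, 3.37%, 6.00% and 5.21% in CP6 and 2.66%, 5.61%, 1.29% and 2.84% in osteoclasts, so CP6 was higher in each library other than PTB Tbx1+/- replicate 1.

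The cartilage lists differed among themselves. Against CP1 to CP5 summed, the low matrix genes and the low Sox9, Sox5 and Sox6 go against the name of chondrocyte progenitors. For Sox9 and Col2a1 this was not particular to CP6. CP1 and CP3 overlapped CP6 in Sox9, and CP1 had a lower mean of Col2a1 (699 against 760 CPM). The sum of progenitor and resting zone genes overlapped that of CP1 to CP5 but was highest in a connective tissue type, so it does not decide the name. The 16 genes of chondrocyte matrix summed to 2495 to 3817 CPM in CP6 and to 5170 to 6633 CPM in CP1 to CP5, and CP6 ranked 11th of the 15 types. Of the 16, 12 were lower in CP6 than in all other nuclei in every library and 0 were higher. Col2a1, the main collagen of cartilage, had 562 to 915 CPM in CP6 (8th of the types), and Acan, which encodes aggrecan, had 36.9 to 62.1 CPM against 136 to 150 in CP1 to CP5 (12th). Sox5 and Sox6, the partners of Sox9, had 178 to 225 and 189 to 248 CPM in CP6, against 595 to 727 and 663 to 781 CPM in CP1 to CP5. The list of 9 chondrocyte transcription factors summed to 4801 to 5591 CPM in CP6, above the 4232 to 4436 CPM of all other nuclei and overlapping the 5224 to 5961 CPM of CP1 to CP5, and ranked 6th. Zbtb20, a zinc finger factor, alone supplied 3769 to 4578 CPM of this sum, and of the 9 members 2 were above all other nuclei in every library and 6 were below. The 10 genes of chondrocyte progenitors and the resting zone summed to 2118 to 2995 CPM in CP6, 2327 to 2530 CPM in CP1 to CP5 and 1941 to 2122 CPM in all others. CP6 ranked 7th, and CT2, a connective tissue type, was highest with a mean of 4758 CPM. Of the 10, 4 were higher in CP6 than in all other nuclei in every library and 2 were lower. In this list Clu, which encodes the secreted chaperone clusterin, was highest in CP6 of all types with 110 to 244 CPM, and Apoe, a lipid carrier, was second with 354 to 1157 CPM. The nuclei are called CP6 below, by their annotation.

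What set CP6 apart was a group of genes found at much lower levels in the other annotated types of the PTB. Nuclei outside the annotation, such as neurons, were not compared. Of 6853 genes with at least 20 CPM in CP6 in every library, 328 were over 2-fold above all other annotated nuclei in each of the 4 libraries, and 257 were over 2-fold above CP1 to CP5. In all, 507 genes had their highest mean level in CP6. These counts follow from how the clusters were drawn and are not tests. Without the sub-cluster of CP6 nuclei with osteoblast genes described below, an alternative chosen after seeing the data, 360 genes were over 2-fold above the others.

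The gene that stood furthest apart was Plpp4 (chr7:129257031-129391412, plus strand, mm10), a lipid phosphatase of membranes. It had 379, 438, 412 and 381 CPM in CP6, 82.3 to 90.9 times the level in all other nuclei, and the next type, CP5, had a mean of 24.7 CPM. Cdh6 (chr15:13028701-13173675, minus strand), a classical cadherin of cell adhesion, had 1510, 1448, 1612 and 1583 CPM and was 30.5 to 38.1 times the others. Emilin2 (chr17:71252172-71311978, minus strand), an extracellular matrix glycoprotein, had 212, 170, 213 and 173 CPM against 3.78 to 8.27 in the others. Emcn (chr3:137341067-137432185, plus strand), a sialomucin best known from endothelium, had 1021, 879, 989 and 959 CPM and was 25.9 to 33.8 times the others. All 4 libraries of each of these genes lay above every library of every other type.

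The remaining leading genes named here include regulators of vesicles, adhesion proteins and receptors. Stxbp5l, a regulator of vesicle fusion, had 405, 473, 490 and 557 CPM and was 46.1 to 54.9 times the other nuclei. Syt1, the calcium sensor of synaptic vesicles, had 1543, 1534, 1793 and 1631 CPM and was 20.1 to 27.0 times the others, with CP3 next at a mean of 404. Among adhesion proteins, Nrxn3 had 1508 to 2096 CPM and Opcml 738 to 871 CPM, and Cntn3, the last of the 30 leading genes, had 2437 to 3574 CPM and was 9.89 to 13.4 times the others. Among receptors, Erbb4, which binds neuregulins, had 1551 to 1784 CPM (13.1 to 20.0 times the others). Grik1, a kainate receptor subunit, had 249 to 537 CPM, and Gabrb1, a GABA-A receptor subunit, had 247 to 316 CPM. Npffr2, a neuropeptide receptor, had 32.5 to 56.2 CPM.

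Other leading genes act in transcription, in the germ line or in muscle. Dach1, a cofactor of transcription in organ development, had 1619, 1630, 2043 and 1753 CPM and was 16.3 to 27.9 times the others. Nr1h4, the bile acid receptor, was low in absolute terms with 30.6 to 35.9 CPM but 11.9 to 13.7 times the others. Creb5, a leucine zipper factor known from joint cartilage, had 1145 to 1402 CPM against 20.8 to 49.2 CPM in CP1 to CP5, while CT1, a connective tissue type, had a mean of 740. Tex15, a factor of the male germ line, had 602, 566, 697 and 558 CPM (36.3 to 49.6 times the others), and Mybpc1, the slow myosin-binding protein C, had 1037 to 1212 CPM (18.6 to 25.4 times).

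**Figure D2:**
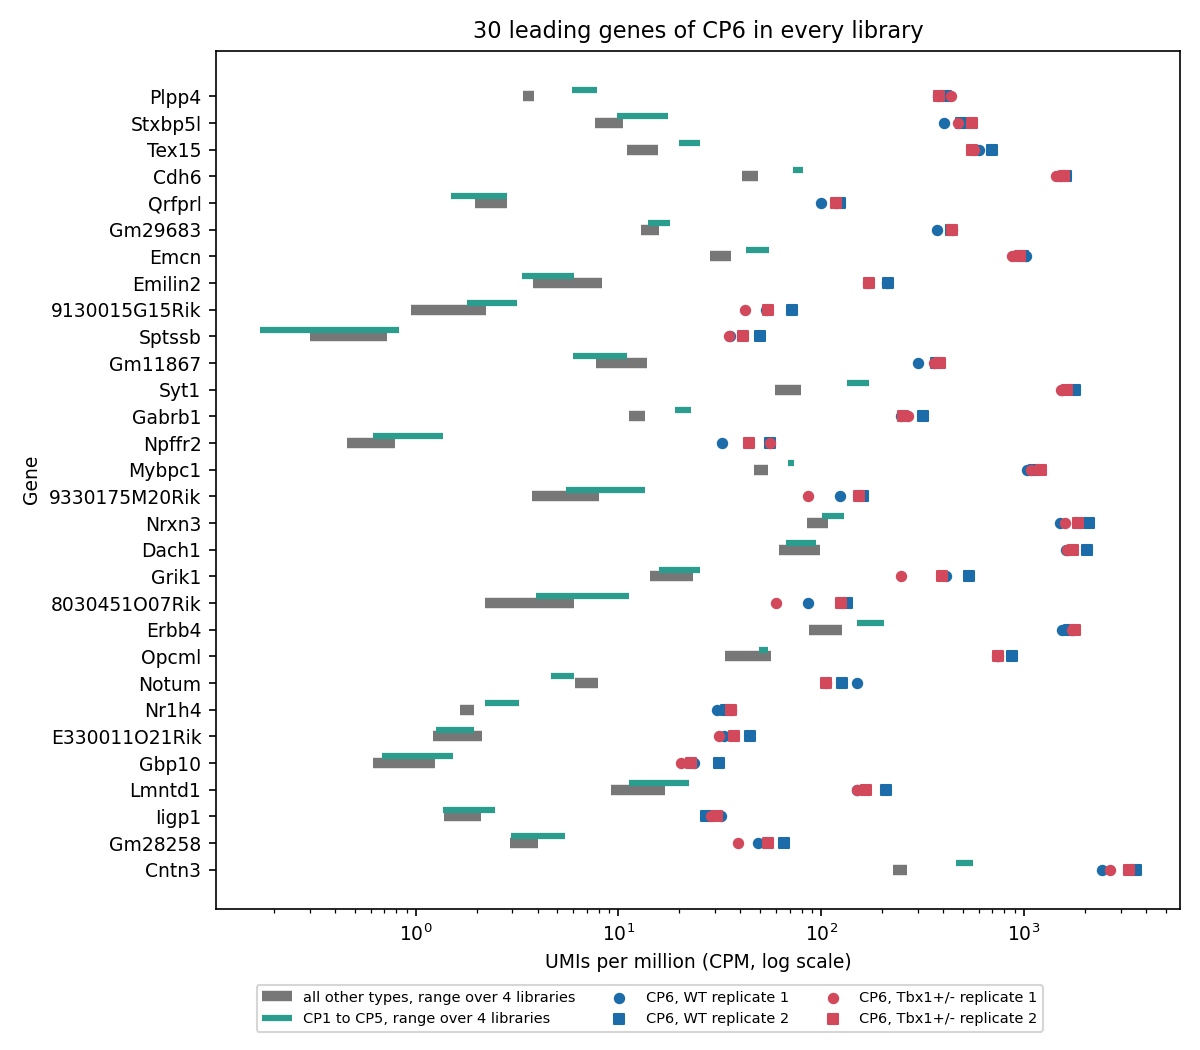
Levels of the 30 leading genes of CP6 in CPM on a log axis, with 1 point per CP6 library and bars for the range over the 4 libraries of CP1 to CP5 summed and of all other types summed. Plpp4 lies at 379 to 438 in CP6 and Cntn3 at 2437 to 3574, and for each gene the CP6 points lie to the right of both bars.

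Conversely, 229 of 7364 genes with at least 20 CPM in CP1 to CP5 in every library were over 2-fold lower in CP6 in each library. Ctnnd2, a catenin of adhesion complexes, had 75.9 to 145 CPM in CP6 and 805 to 1112 in CP1 to CP5. Sorcs3, a sorting receptor, had 65.0 to 104 CPM against 581 to 671. Gria4, an AMPA receptor subunit, and Lrp1b, a receptor of the LDL family, had 35.0 to 82.7 and 42.9 to 64.0 CPM in CP6, against 366 to 469 and 328 to 364 CPM. Sema3d, a secreted guidance protein, had 291 to 353 CPM against 1558 to 1978. Genes of adhesion and of receptors therefore stood both among the leading genes of CP6 and among those low in it.

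Profiles were compared over 10643 genes, with the UMIs of each type pooled over the 4 libraries. CP6 was closest to CP4 (Pearson r of log2(CPM + 1) 0.936), followed by CP3 (0.915), CP2 (0.897), CP5 (0.896) and the connective tissue type CT1 (0.890). It was furthest from osteoclasts (0.696). These correlations are across genes, which are not independent, of sums from the same 4 libraries. With each gene centred on its mean over the types, the order after CP4 (0.450) and CP3 (0.416) changed to CP5 (0.314), CT2 (0.260), CT1 (0.126) and CP2 (0.0539). CP5, which matched CP6 in Tbx1, was not its nearest type on either scale.

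The genes whose mean level followed Tbx1 most closely over the 15 types were D830024N08Rik (Spearman rho 0.92), Ccdc167 (0.89), Rbm4b (0.85), Gstz1 (0.85), Wdr33 (0.84), Grin3a (0.84), 1700018A04Rik (0.83), Trim33 (0.82), Ptbp2 (0.82) and Tmem216 (0.80). The ranking was over 15 types that share 4 libraries and was made among many genes. Only 1700018A04Rik was also far higher in CP6 in absolute terms, with 93.2 to 117 CPM against 9.66 to 11.17 in all other nuclei. Rbm4b and Ptbp2, both regulators of splicing, had 75.2 to 134 and 305 to 356 CPM in CP6, against 78.3 to 104 and 239 to 263 CPM in the others.

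Among the genes tied to Tbx1 in development, a list of 22 that summed to 3226 to 3569 CPM in CP6 and 2480 to 2650 CPM in CP1 to CP5, CP6 ranked 3rd of the types. Dach1, described above with 1619 to 2043 CPM, was highest in CP6 and supplied the largest part of the sum. Of the 22, 5 were above all other nuclei in every library and 8 were below. Eya1, a factor of otic development, had 574 to 647 CPM in CP6 but 869 to 1028 in CP1 to CP5. Of the 16 T-box genes in the table, Tbx18, a factor of otic fibrocytes and other mesenchyme, had 323 to 400 CPM in CP6 against 166 to 189 in the others and 371 to 433 in CP1 to CP5. Tbx15, a factor of craniofacial mesenchyme, had 28.1 to 43.1 CPM and was lower in CP6 than in any other type by mean. Tbx2, a repressor, had 17.8 to 26.3 CPM and 5 T-box genes had no UMI in CP6. The 25 genes of the mouse region matching 22q11.2 summed to 697 to 714 CPM in CP6 and 666 to 692 in CP1 to CP5. Besides Tbx1, Mrpl40 (17.8 to 25.7 CPM), a mitochondrial ribosomal protein, and Prodh (16.8 to 25.03 CPM), proline dehydrogenase, had their highest mean in CP6, with means of the next type within these ranges.

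Retinoic acid, made from vitamin A, influences cartilage formation and interacts with Tbx1 in the embryo. The 15 genes of its synthesis, breakdown and receptors summed to 888 to 1072 CPM in CP6, 580 to 609 CPM in CP1 to CP5 and 401 to 428 CPM in all others, and CP6 ranked first of the types. Of the 15, 6 were above all others in every library, 3 of them over 2-fold, and 6 were below. Rarb, a retinoic acid receptor and itself a known target of the signal, had 461 to 586 CPM in CP6, against 189 to 207 CPM in CP1 to CP5. Aldh1a2, the synthesising enzyme, had 81.8 to 118 CPM against 13.1 to 17.8 CPM in all others, and only CT2 had a higher mean at 143. Stra6, the receptor that takes up vitamin A, had 4.38 to 10.4 CPM against 1.30 to 1.68. Cyp26b1, which breaks retinoic acid down, had 2.09 to 5.92 CPM in CP6 and 12.0 to 18.6 CPM in CP1 to CP5.

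In the Wnt pathway, which favours bone over cartilage, the summed level of 23 genes did not set CP6 apart (2007 to 2150 CPM, against 2037 to 2084 in CP1 to CP5). Single members did. Axin2, a target and feedback inhibitor of the pathway, had 75.1 to 97.1 CPM against 19.4 to 23.9 in all others, with CP3 next at a mean of 86.3 that overlapped it. Notum, a secreted enzyme that inactivates Wnt ligands, had 151, 105, 127 and 106 CPM in CP6 against 6.11 to 7.90 CPM in all others. Fzd2, a receptor, was highest in CP6 with 42.3 to 66.8 CPM. The ligand Wnt5b and the coreceptor Lrp5 were lower in CP6 with 34.1 to 51.8 and 57.4 to 70.8 CPM, against 108 to 118 and 103 to 125 CPM in all others.

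Hedgehog signalling drives the growth of cartilage and bone. The summed level of its 14 genes was lower in CP6, with 1212 to 1306 CPM against 1737 to 1957 CPM in CP1 to CP5, 12th of the types. Of the 14, 6 were below all others in every library, 4 of them over 2-fold, and 1 was above. The receptors and targets Ptch1 (101 to 127 CPM, against 285 to 342 in all others), Gli1 (8.87 to 10.2, against 21.4 to 24.3) and Hhip (55.0 to 93.7, against 188 to 244) and the activator Gli2 (65.0 to 88.3, against 200 to 239) were those over 2-fold lower. Gli3, known mainly as the repressor of the pathway, was the 1 above all others and was highest in CP6 of all types, with 466 to 546 CPM against 239 to 245.

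The FGF receptors differed from each other. Fgfr4 had 139 to 220 CPM in CP6 against 30.4 to 50.03 CPM in all others, behind CP5 (mean 406) and CP3 (mean 204). Fgfr1, Fgfr2 and Fgfr3, the receptors of bone and cartilage, had 169 to 200, 764 to 855 and 16.0 to 27.7 CPM, all below the 332 to 365, 1021 to 1204 and 50.4 to 58.1 CPM of the others. All 16 FGF genes summed to 1294 to 1462 CPM in CP6 and 1784 to 2021 CPM in CP1 to CP5. The 25 genes of BMP and TGF-beta signalling were closer, with 2199 to 2352 CPM in CP6 and 2464 to 2539 CPM in CP1 to CP5.

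Of 15 genes of otic fibrocytes and otic mesenchyme, the cells that line the otic capsule and recycle potassium, 7 were higher in CP6 than in all other nuclei in every library and 7 were lower, and CP6 ranked 5th. Otor, a secreted protein of the otic capsule, had 346 to 755 CPM and Pou3f4, a factor of periotic mesenchyme, 70.8 to 113 CPM. The fibrocyte genes Coch (16.0 to 28.1 CPM) and Otos (10.2 to 22.7 CPM) lay below their levels of 64.0 to 96.1 and 22.1 to 50.8 CPM in CP1 to CP5, Otos with ranges that met. Among 17 ion transport genes of fibrocytes, the potassium channel Kcnk2 was highest in CP6 of all types with 232 to 428 CPM against 27.6 to 35.3 in all others, while Kcnma1, another potassium channel, had 177 to 260 CPM against 813 to 987.

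**Figure D3:**
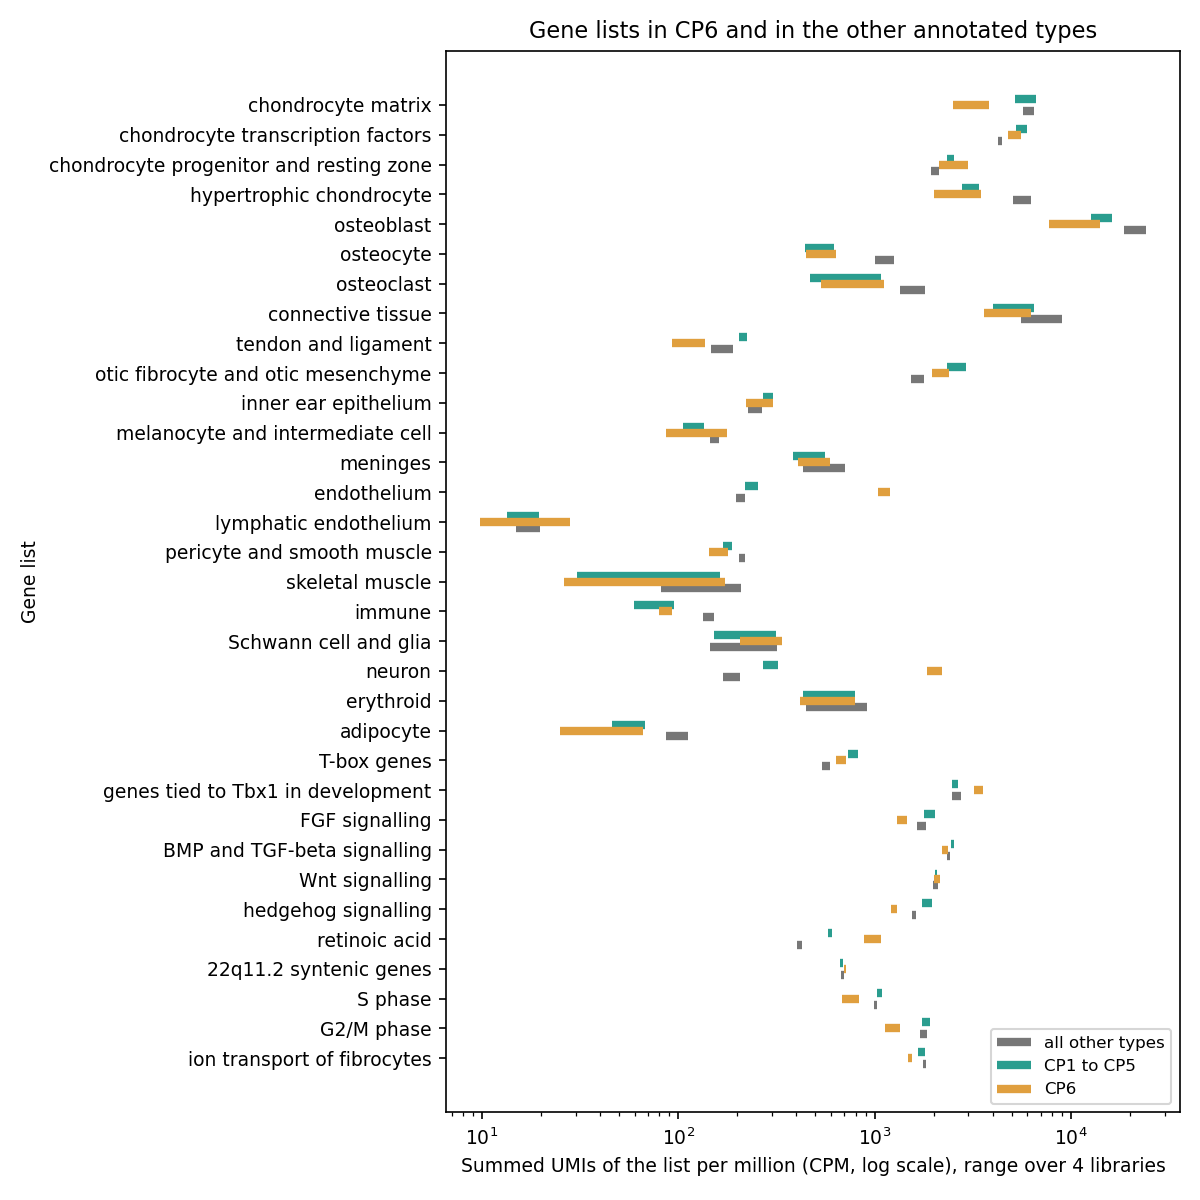
Summed CPM of each gene list on a log axis, as bars for the range over the 4 libraries of CP6, of CP1 to CP5 and of all other types. The bars of CP6 for endothelium (1042 to 1193), neuron (1852 to 2210) and retinoic acid (888 to 1072) lie to the right of both others, and those for chondrocyte matrix and hedgehog signalling lie to the left.

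Markers of other cells were checked over whole lists. The 7 endothelial genes summed to 1042 to 1193 CPM in CP6 against 197 to 219 in all others, the highest of the types, but Emcn supplied most of this. Of the 7, 4 were above all others in every library, 2 of them over 2-fold, and 1 was below. Besides Emcn the higher members were Flt1 (42.4 to 47.4 CPM, against 17.3 to 22.3 in all others) and Tek (27.5 to 40.1, against 10.2 to 17.4), both receptors of endothelium, and Cdh5, its cadherin (25.7 to 27.7, against 19.1 to 22.8). Pecam1 and Kdr, which also define endothelium, had 11.7 to 19.7 and 9.49 to 17.7 CPM, overlapping the 12.2 to 17.8 and 12.4 to 18.1 CPM of all others. Erg, an endothelial transcription factor, had 18.1 to 35.0 CPM against 88.2 to 95.8 in all others. The 7 neuron genes summed to 1852 to 2210 CPM against 169 to 206 in all others, again the highest of the types, with Syt1 supplying most of the sum. Neither endothelium nor neurons are among the annotated types, so these ranks do not compare CP6 with either. Syt1 and Snap25 (25.03 to 38.8 CPM) were each highest in CP6, and 4 of the 7 were above all others in every library and 0 below. Neurod1 had 2 UMIs in all CP6 nuclei. The 13 osteoblast genes summed to 7731 to 13986 CPM in CP6 and 18563 to 24240 CPM in all others, with all 13 lower in CP6 in every library. Connective tissue genes summed to 3599 to 6294 CPM (12th of the types) and immune genes to 79.6 to 92.6 CPM (7th). Free RNA or doublets as a source of these UMIs were not tested, beyond leaving out the nuclei with the most UMIs, which left the 30 leading genes at least 9.09-fold above the others in every library, 1 of them with under 20 CPM in a library.

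CP6 was not uniform. Leiden clustering of its 1434 nuclei gave 6 sub-clusters of 493 to 24 nuclei, all present in each library. Sub-clusters were drawn from the same counts, so the levels below describe them and are not tests. Tbx1 was highest in sub-cluster 5 and sub-cluster 6, with 120 and 121 CPM, and lowest in sub-cluster 2, with 34.4 CPM. The level of sub-cluster 2 rests on 4, 3, 8 and 1 UMIs in the 4 libraries, with 70.2 CPM in PTB WT replicate 2.

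Sub-cluster 5 was the largest with 34.4% of CP6, and held 35.5%, 30.1%, 31.6% and 39.3% of the CP6 nuclei of the 4 libraries. It had the highest levels of Plpp4 (893 CPM), Tex15 (1125 CPM), Dach1 (2964 CPM) and Erbb4 (3417 CPM) and was led by genes that include Aldh1a7 and Epha3, an ephrin receptor. Its Tbx1 level was 102, 97.9, 142 and 142 CPM from 64, 33, 52 and 74 UMIs. Sub-cluster 3, with 25.2% of CP6, had the highest levels of Emcn (1656 CPM) and Cdh6 (2262 CPM) and was led by Tcerg1l and Slc17a8, a vesicular glutamate transporter. Its Tbx1 level was 66.4, 33.7, 102 and 96.7 CPM. Sub-cluster 4, with 19.5%, was led by Tafa1 (1742 CPM), which encodes a secreted protein known from the brain. Its leading genes included Lmx1a, a transcription factor of the otic vesicle, Nrxn3 (5790 CPM) and Kcnk2 (1022 CPM), and it had the highest level of Creb5 (1929 CPM).

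The remaining sub-clusters were smaller. Sub-cluster 2, with 7.53% of CP6, had Slc16a10, an amino acid transporter (389 CPM, against 33.6 in the rest of CP6), and Mkx, a factor of tendon (333 CPM, against 43.8), among its leading genes and had the highest levels of Emilin2 (922 CPM) and Notum (430 CPM). Sub-cluster 1, with 11.7% of CP6, had a median of 7133 UMIs per nucleus against 3386 to 4191 in the others, Kcnma1 at 736 CPM against 99.6 in the rest of CP6, and osteoblast genes summed to 18937 CPM. It still had a Tbx1 level of 65.4 CPM. Whether these nuclei are doublets was not tested. Sub-cluster 6 held 24 nuclei, 1 of them in PTB WT replicate 2, was led by Shc3, an adaptor protein, and Sgcz, a sarcoglycan, and its Tbx1 level rests on 12 UMIs.

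**Figure D4:**
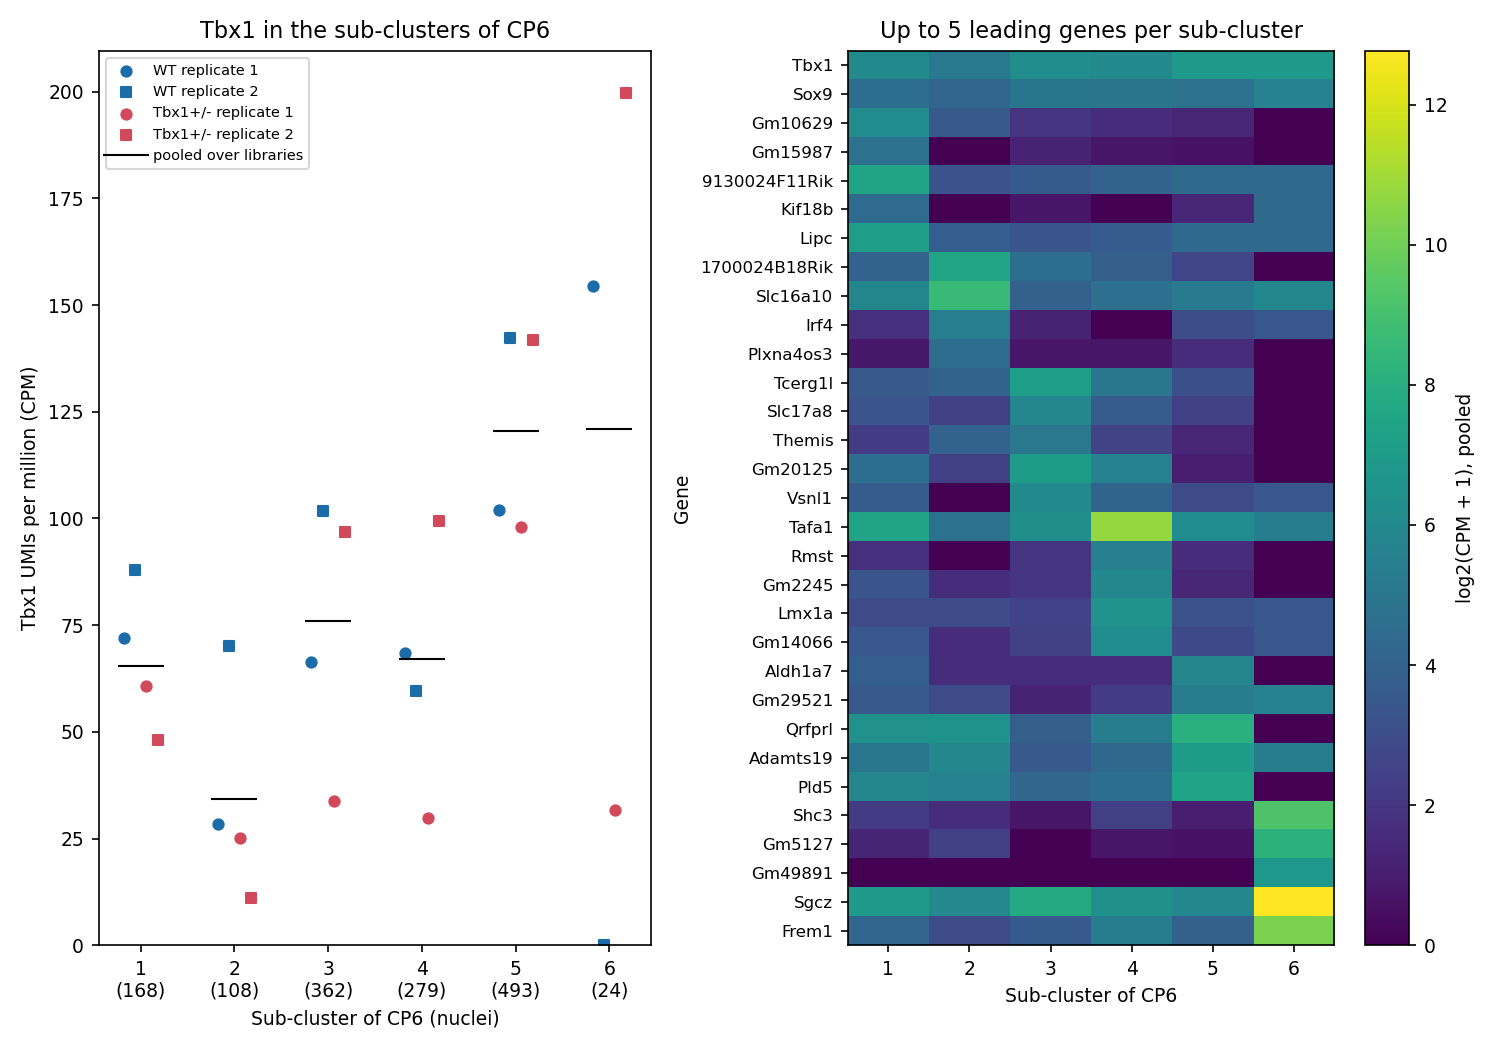
Left, level of Tbx1 in CPM (y axis) in the 6 sub-clusters of CP6 (x axis, with the number of nuclei), 1 point per library and a line for the pooled level. Right, log2(CPM + 1) of Tbx1, Sox9 and up to 5 leading genes of each sub-cluster, as colour. Sub-cluster 5 has a pooled Tbx1 level of 120, against 34.4 in sub-cluster 2. PTB Tbx1+/- replicate 1 lies at 97.9 in the former (33 UMIs) and 25.1 in the latter (3 UMIs).

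The summed levels of cell cycle genes were lower in CP6 than in CP1 to CP5 summed, but not than in each of those types. The 43 S phase genes summed to 828, 803, 757 and 686 CPM in CP6 and 1032 to 1094 CPM in CP1 to CP5, and the 54 G2/M genes to 1355, 1275, 1135 and 1348 CPM and 1735 to 1917 CPM. CP2 had the highest sums of the types (1470 to 1620 CPM for S phase and 2405 to 2790 CPM for G2/M). CP5, with 715 to 772 CPM and 1148 to 1257 CPM, lay within the ranges of CP6. CP6 ranked 11th and 12th of the 15 types. Between genotypes the differences in CP6 were small and of opposite sign, with a Tbx1+/- minus WT difference of -0.09 (log2) for S phase (exact permutation test, two-sided, p = 0.667) and 0.08 for G2/M (exact p = 1). With 2 libraries in each genotype the smallest p this test can give is 0.333. The S phase difference turned to 0.0200 without PTB Tbx1+/- replicate 2, and the G2/M difference to -0.0477 without PTB WT replicate 2.

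The study asked whether losing 1 copy of Tbx1 changes the makeup and expression of the PTB. It reported significantly fewer chondrocyte progenitors in Tbx1+/- mice, and significantly lower Tbx1 in the main cartilage and bone populations. Its test of makeup was a beta-binomial regression (DCATS), and its text gives no value for CP6 alone. The values below differ from those results in test and in the set of nuclei. The share of CP6 among annotated PTB nuclei was 4.91% (4.50 to 5.35%), 3.52% (3.14 to 3.92%), 5.13% (4.59 to 5.72%) and 5.16% (4.63 to 5.73%), so PTB Tbx1+/- replicate 1 was lower than the others, whose intervals overlapped. The mean was 5.02 ± 0.157% in WT and 4.34 ± 1.16% in Tbx1+/- (SD, n = 2 each). The change was -0.21 ± 0.25 (log2, SE) by edgeR's quasi-likelihood test on nuclei per type, with an unadjusted edgeR p of 0.456 and a Benjamini-Hochberg adjusted p of 0.855 over 15 types, and did not pass the false discovery rate of 0.1. Without PTB Tbx1+/- replicate 1 the change was 0.0396, and without PTB Tbx1+/- replicate 2 it was -0.51 with an edgeR adjusted p of 0.347. Among CP1 to CP6 alone, CP6 made up 11.15%, 9.71%, 12.7% and 13.2%.

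Tbx1 itself did not pass the test between genotypes in CP6. The change of Tbx1+/- against WT was -0.18 ± 0.27 (log2, SE), with an unadjusted edgeR p of 0.518 and an adjusted p of 1.00. Within batch 1 it was -0.53 and within batch 2 it was 0.02, so the genotypes overlapped, and the value without PTB Tbx1+/- replicate 1 was 0.17. Over all annotated PTB nuclei Tbx1 had 38.9, 26.3, 39.4 and 35.7 CPM, lower in the Tbx1+/- library of each batch. In CP1 to CP5 it had 50.1, 36.7, 56.7 and 44.6 CPM. The difference between the change in CP6 and that in CP1 to CP5 was 0.18 ± 0.18 (log2, SE), with an unadjusted p of 0.314 and an adjusted p of 1.00 by the edgeR interaction test, and turned to -0.14 without PTB Tbx1+/- replicate 2. The share of CP6 nuclei with a Tbx1 UMI was 29.4 ± 4.42% in WT and 26.2 ± 10.8% in Tbx1+/- (SD, n = 2 each, exact permutation p = 1), and the difference of -3.22 percentage points turned to 4.39 without PTB Tbx1+/- replicate 1.

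Across genes, 0 of 12180 tested passed an adjusted p of 0.05 and a 1.5-fold change between genotypes in CP6 by edgeR, which is 0% of the genes tested. At an unadjusted edgeR p under 0.05 there were 205, or 1.68% (455 genes with the batch as a block), and the lowest adjusted p was 1.00. DESeq2 also called 0, with 34 at an unadjusted p under 0.05. Leaving out PTB WT replicate 1 gave 63 called genes, and leaving out PTB WT replicate 2 gave 60. The 63 and the 60 shared 12 genes, 19.0% of the former and 20.0% of the latter, and 0 of the 12 had the same direction in both. In each of these fits WT was 1 library, assumed to vary like the Tbx1+/- libraries. Leaving out either Tbx1+/- library gave 0.

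A total of 105 genes (0.862% of those tested) were over 1.5-fold higher in Tbx1+/- in the fit and in both batches and 127 (1.04%) were over 1.5-fold lower, with 0 past the adjusted threshold. Fat3, an atypical cadherin, had 219, 387, 172 and 298 CPM with a log2 change of 0.79 ± 0.20 (SE) and an unadjusted edgeR p of 0.00318, and Gclc, which starts glutathione synthesis, had 17.7, 40.9, 20.2 and 34.1 CPM (0.97 ± 0.26). Gria1, an AMPA receptor subunit, had 1.48, 14.6, 3.48 and 12.0 CPM, from 3, 20, 5 and 20 UMIs (2.45 ± 0.53). In each of these genes both Tbx1+/- libraries lay above both WT libraries, which follows in part from the rule that chose them. The share of all tested genes separated in this way was not counted. Of the 12180 genes, 5820 had the same sign in both batches. The others chosen by the same rule were Prdm1 (log2 change 1.89), Esr1 (1.17), Tomm34 (1.12), Gm19299 (1.90), C130073E24Rik (2.13) and Insc (0.87). Insc was a leading gene of sub-cluster 1, with 140 CPM against 14.01 in the rest of CP6, and this sub-cluster made up 11.22%, 15.0%, 9.12% and 11.8% of CP6 in the 4 libraries. Without it, an alternative chosen after seeing the data, the change was 0.322 for Insc and 0.463 for Fat3. In the same alternative it was 2.02 for Gria1, 0.821 for Gclc and 1.65 for Prdm1. Whether the share of this sub-cluster accounts for any of these changes was not tested.

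Among the 127 lower genes, Cntn5, a contactin of neuronal adhesion, had 120, 79.6, 120 and 72.9 CPM, a log2 change of -0.67 ± 0.16 (SE) and an unadjusted edgeR p of 0.00285. Nupr1, a stress response factor, had 51.8, 27.7, 54.2 and 30.5 CPM (-0.87 ± 0.22). Dio2, which activates thyroid hormone, had 27.1, 8.76, 17.4 and 7.77 CPM (-1.46 ± 0.37). Hs3st3b1, a heparan sulfate sulfotransferase, had 57.2, 38.0, 61.9 and 34.7 CPM (-0.72 ± 0.21) and was a gene of CP6, since all other nuclei had 2.31 to 3.67 CPM. Epyc, a small proteoglycan of cartilage, had 65.1, 43.8, 63.3 and 38.8 CPM (-0.65 ± 0.20), and its change was -0.30 without the nuclei with the most UMIs. Both Tbx1+/- libraries lay below both WT libraries in these 5 genes, which again follows in part from the rule that chose them. The share of all tested genes separated in this way was not counted. The rest were Grm3 (-1.76), Gm48512 (-0.79), Gm49179 (-1.10), Trappc11 (-0.83) and Spsb1 (-1.40).

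**Figure D5:**
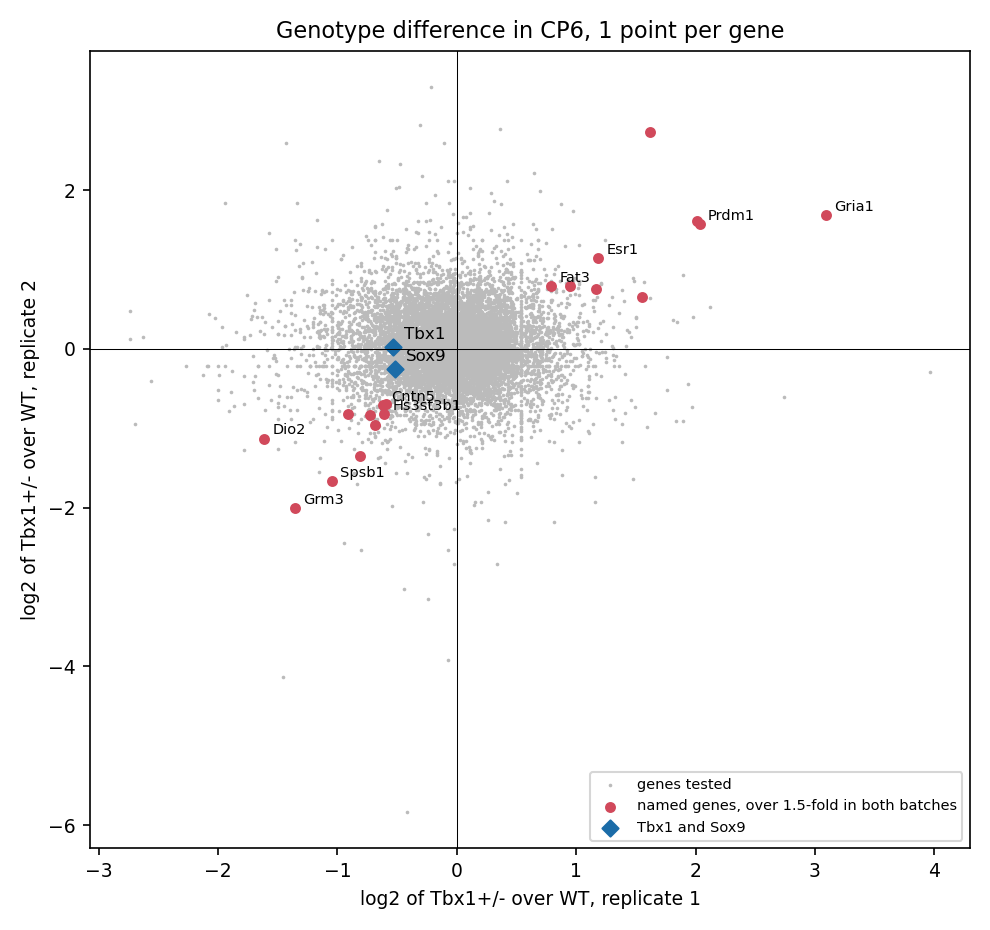
Log2 change of Tbx1+/- against WT in CP6 within batch 1 (x axis) and within batch 2 (y axis), with 1 point per gene tested and the genes named for a difference over 1.5-fold in both batches marked with Tbx1 and Sox9. Of the 12180 genes, 5820 had the same sign in both batches, and Tbx1 lies at -0.53 in batch 1 and 0.02 in batch 2.

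The genes that led CP6 did not pass the test between genotypes. The log2 change was 0.04 ± 0.16 (SE) for Plpp4, -0.05 ± 0.17 for Cdh6, -0.12 ± 0.18 for Dach1, -0.32 ± 0.15 for Emilin2 and 0.12 ± 0.16 for Erbb4. Notum had -0.41 ± 0.17 with an unadjusted edgeR p of 0.0344, and Fzd2 had -0.63 ± 0.20 with an unadjusted edgeR p of 0.0106, and neither passed the adjusted threshold. Of the members of the 33 gene lists, 0 were called. The median log2 change was 0.07 over the 9 tested genes of retinoic acid, -0.06 over 11 hedgehog genes, 0.003 over 19 Wnt genes and 0.08 over 15 chondrocyte matrix genes, against 0.002 over all genes tested. In the resting zone list the median was -0.33 over 7 genes. Its member Clu had 244, 110, 131 and 134 CPM, so PTB WT replicate 1 was high and the other 3 libraries lay close together. Apoe in the same list had 1157, 354, 528 and 594 CPM, again highest in PTB WT replicate 1, and all other nuclei had 360, 201, 187 and 251 CPM of it, highest in the same library.

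With the batch as a block, 1 gene passed the edgeR threshold, Bpifa1, a secreted protein of airway and middle ear epithelium, with a log2 change of -2.06 ± 0.31 (SE) and an adjusted p of 0.0372. Its level in CP6 was 203, 75.2, 68.1 and 3.59 CPM, and in all other annotated nuclei it was 177, 56.9, 74.5 and 4.05 CPM. The level thus moved with the library in CP6 and outside it alike, and the part of free RNA in it was not tested. Ttr, a transport protein of choroid plexus, moved in the same manner with 6.90, 113, 36.8 and 29.9 CPM in CP6 and 4.27, 107, 23.5 and 21.8 CPM in all others. Both genes were singled out after their values were seen.

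The change between genotypes in CP6 was also compared with that in CP1 to CP5 of the same libraries. Of 16805 genes tested, 0 (0%) passed an adjusted p of 0.05 and a 1.5-fold difference by edgeR, 709 had an unadjusted p under 0.05, and the lowest adjusted p was 0.185. DESeq2 also called 0, with 94 at an unadjusted p under 0.05. Leaving out 1 library gave 34, 22, 20 and 8 called genes, in the order PTB WT replicate 1, PTB Tbx1+/- replicate 1, PTB WT replicate 2 and PTB Tbx1+/- replicate 2. The lowest p was that of Kctd8, an auxiliary subunit of GABA-B receptors, which was chosen after its values were seen. It had 149, 109, 216 and 120 CPM in CP6, lower in the Tbx1+/- library of each batch, with a change of -0.67 ± 0.20 (log2, SE) in CP6 and a difference from CP1 to CP5 of -0.78 ± 0.14. Kctd8 passed the threshold in 7 of the 10 alternatives run, with a difference of -0.94 to -0.63 in those 7. Of these, 4 left out 1 library, so that 1 genotype was a single library assumed to vary like the other genotype, and 3 used the 4 libraries. Fat3 had a difference from CP1 to CP5 of 0.67, also with an adjusted p of 0.185, and passed in 5 of the 10 with a difference of 0.64 to 0.88, 3 of the 5 with a library left out. Dach2, Gria1 and Musk, named for their count of calls after their values were seen, also passed in 5 of the 10. Of these, 3, 2 and 2 used the 4 libraries. The difference in those 5 was -1.80 to -0.955 for Dach2 and 2.49 to 3.23 for Gria1. For Musk it was -8.87 to -8.55 with an SE of 1.64 to 2.07, so its size is imprecise. The alternatives share libraries, so these counts are not independent support.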

How the data were processed

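Nuclei of the petrous temporal bone were profiled by 3′ single-nucleus RNA sequencing in 4 libraries, 2 WT and 2 Tbx1+/-, each a pool of 5 mice. The deposited files give raw UMI counts for each gene in each nucleus, from Cell Ranger 7.0.0 run by the authors on mm10 with intronic reads included. The authors then corrected for ambient RNA and filtered nuclei before annotating them. Neither step is in the matrices, and no doublet caller was run here or is described for them. Cell types were taken from the deposited annotation. CP6, its gene lists and the tests were chosen with earlier results of these data known.

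UMIs of CP6 nuclei were summed per library. Genotypes were compared with edgeR 4.0.16 (R 4.3.3; filterByExpr, TMM, quasi-likelihood test, Benjamini-Hochberg adjustment over all genes tested), calling genes at an adjusted p of 0.05 and a 1.5-fold change. The difference from CP1 to CP5 was tested as an interaction with library as a block. Nuclei per type were tested by the same method at a false discovery rate of 0.1. Single values were compared by exact two-sided permutation. With 2 pools in each genotype, p-values rest on the spread between pools. In the edgeR fits the spread of each gene was moderated by that of all genes tested. The study describes 2 batches without tying them to replicate numbers, so the number was taken to mark the batch. Same-numbered libraries deviated together (r = 0.272 over 12180 genes), which does not by itself establish the batches. DESeq2 1.42.0 was an alternative.

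Levels in CP6 against other types were compared per library among genes with at least 20 CPM, with 1 CPM added before ranking. Genes named were Tbx1 and Sox9, called genes, up to 10 genes in each direction over 1.5-fold in both batches by smallest p, the 30 genes furthest above all other types and 15 above CP1 to CP5 in their lowest library, the 10 lowest against CP1 to CP5, the 10 most like Tbx1 over 15 types, and up to 6 members of each list by level and any called member. Further list members were named after their values were seen. Sub-clusters came from scanpy 1.11.5 (2000 variable genes, 30 components, 15 neighbours, Leiden resolution 0.5). Tested on simulated counts, the genotype test in CP6 missed more than it found of the genes given a 2-fold change, so a count of 0 called genes does not show that no gene changed. A few genes that the rule names are not reported here.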

Additional observations from a re-analysis of the deposited data

How the results depend on the processing

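The genotype comparison in CP6 called 0 genes by edgeR, and also 0 with RLE size factors, with DESeq2, with nuclei of 2000 or more genes, without the 8% of nuclei with the most UMIs, and without sub-cluster 1, which was chosen after seeing the data. It called 1 with the batch as a block and 5 with no filter on low counts, and 0 to 63 when 1 library was left out. Among list members the count of 0 became 1 with no filter and 0 to 10 with 1 library left out, and among named genes 1 and 0 to 2. The replicate block left the Tbx1 change at -0.23 and changed no call other than that of Bpifa1. The interaction with CP1 to CP5 called 0 genes, but 10 with nuclei of 2000 or more genes, 1 without the nuclei with the most UMIs (Kctd8), 10 with no filter, 1 without sub-cluster 1 (Dach2), and 8 to 34 with 1 library left out. Kctd8 was called in 7 of the 10 alternatives and Dach2, Fat3, Gria1 and Musk in 5 each; with a library left out, 1 genotype is a single library assumed to vary like the other. It holds the library as its block already. The causes of these changes were not tested.

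With 1 library left out, the Tbx1 change ranged from -0.68 to 0.17, its difference from CP1 to CP5 from -0.14 to 0.41, the CP6 share change from -0.51 to 0.0396 (log2), the share of nuclei with Tbx1 from -10.8 to 4.39 points, the S phase difference from -0.207 to 0.0200 and the G2/M difference from -0.0477 to 0.207. The G2/M difference was -0.0119 without the nuclei with the most UMIs. Each of these values had a range across 0, and none passed its threshold in any setting run. Of 221 values for single genes under the alternatives, 216 kept their direction and their side of the threshold, 0 reversed and 5 newly passed it. The single genes were Sox9 and those chosen for a change over 1.5-fold in the fit and in both batches. None was called in the main fit and the alternatives share libraries, so kept directions largely follow from that choice and are not support. Exact tests of 2 against 2 libraries cannot give a p below 0.333, Tbx1 rests on 75 to 164 UMIs per library, and a gene far below that depth gives little precision.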
